A study of Mus musculus with 2 samples.

Results

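The transcription factors that drive epithelial-mesenchymal transition (EMT) were followed with the cadherins, vimentin and fibronectin in mouse cells labelled as lymphoma, on 1 array from culture in medium with serum and 1 array from co-culture with endothelial cells, which form the inner wall of blood vessels. The genes were the factors Twist1, Twist2, Snai1, Snai2, Zeb1 and Zeb2, the cadherins Cdh1 and Cdh2, and Vim and Fn1. Every probe set whose array annotation named exactly 1 of these symbols was taken, which gave 22 probe sets for all 10 genes, out of 18193 genes with a probe set on the array. The labels do not name the lymphoma line, a genotype, the age or strain of the source animal, the source of the endothelial cells, the medium of the co-culture, the time in culture or any separation of the cell types. Since the co-culture label names no medium, medium and endothelial cells may both differ between the arrays.

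EMT is the change by which sheet-forming epithelial cells lose their junctions and become motile, as in gastrulation, neural crest migration, wound repair and carcinoma spread. The Snail factors (Snai1, Snai2) and the Zeb factors (Zeb1, Zeb2) are zinc finger repressors that bind E-box sequences, among them those of the Cdh1 promoter, and the Twist factors (Twist1, Twist2) are basic helix-loop-helix proteins that pair with E proteins such as Tcf3 and Tcf12. Cdh1 makes E-cadherin, which holds epithelial cells together, and Cdh2 makes N-cadherin, which often replaces it. Vim makes the intermediate filament of mesenchymal cells, and Fn1 a matrix glycoprotein that integrins bind. In blood cells several of these factors have roles apart from epithelia, such as Zeb2 and Zeb1 in lymphocyte development.

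The motif that Snail and Zeb proteins bind is shown in promoters where it stood and, for comparison, in one without it, because the results below set these factors beside epithelial junction genes. The letters CAGGTG were searched on both strands (CACCTG is the same site read on the other strand) in the 250 bases before each start site of the RefSeq promoters of GRCm38.p6. Each match is also a CANNTG, the general E-box. Capitals mark CAGGTG or CACCTG, and each promoter is read 5′ to 3′ on the gene's strand. Snai1 lies at chr2:167537945-167538194 on the plus strand, Epcam at chr17:87635729-87635978 (plus), F11r at chr1:171437311-171437560 (plus) and Dsp at chr13:38151044-38151293 (plus).
Snai1: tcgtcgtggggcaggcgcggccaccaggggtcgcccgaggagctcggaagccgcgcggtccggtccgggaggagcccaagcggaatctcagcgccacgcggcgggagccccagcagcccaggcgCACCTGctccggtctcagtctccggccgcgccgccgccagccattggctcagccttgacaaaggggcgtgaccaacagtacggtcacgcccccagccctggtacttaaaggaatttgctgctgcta
Epcam: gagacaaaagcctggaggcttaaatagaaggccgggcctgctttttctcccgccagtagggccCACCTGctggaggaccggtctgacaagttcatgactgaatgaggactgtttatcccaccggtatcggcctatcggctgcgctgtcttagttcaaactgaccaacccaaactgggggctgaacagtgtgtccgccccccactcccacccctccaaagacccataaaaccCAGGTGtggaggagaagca
F11r: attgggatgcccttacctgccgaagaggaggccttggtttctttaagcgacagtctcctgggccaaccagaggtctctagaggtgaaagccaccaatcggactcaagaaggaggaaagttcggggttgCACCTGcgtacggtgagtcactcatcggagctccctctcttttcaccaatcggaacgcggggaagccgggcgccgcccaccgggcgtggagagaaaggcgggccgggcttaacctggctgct
Dsp: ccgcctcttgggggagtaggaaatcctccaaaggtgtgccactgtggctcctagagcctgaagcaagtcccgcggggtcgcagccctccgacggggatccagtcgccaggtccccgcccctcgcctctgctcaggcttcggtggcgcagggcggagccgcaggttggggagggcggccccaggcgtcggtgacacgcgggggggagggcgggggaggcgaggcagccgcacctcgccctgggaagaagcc

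In the Snai1 promoter the motif began 126 bases before the start site, in F11r 122 bases before it, and in Epcam 187 and 19 bases before it, whereas the Dsp window held none. Sequences were used for 5 of the 10 genes (Snai1, Twist1, Twist2, Vim and Zeb2), with 8 promoters in all, of which 1 held the motif, that of Snai1. Several of the 8 belong to Zeb2. No sequence was used for the other 5 genes, Cdh1 among them. Promoters on chr18 were left out here and in the junction list below, but were kept in the count of all promoters. Of 25 promoters of 20 genes of epithelial junctions and keratins, 16 held it, at 14 genes. Among all 32851 promoters of this length 17.2% held it, and 66.2% held any CANNTG. The share of G and C bases had a median of 52.4% over all promoters. In the junction promoters it ran from 43.2% to 72.8%, mostly above that median, and the motif is itself rich in G and C. Promoters of like base content were not compared, so these shares do not measure enrichment. Some promoters of a gene overlap, so they are not separate sites, and a match describes letters only.

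An intensity of 44.3, the median of all values, was used as a floor, and 47.3% of the 45101 probe sets of the serum array and 52.7% of those of the co-culture array exceeded it. Values below the floor were set to it before log2 was taken, each gene was represented by its brightest probe set, and genes whose brightest probe set exceeded the floor on at least 1 array are called measured. The 27 control probe sets for bacterial RNA outside the spike mix reached at most 21.6 in serum culture and 21.7 in co-culture. With 1 array per group there are no replicates, so no difference has a test, and no p-value is given. The error given is the pooled SD of log2 differences between measured probe sets of 1 gene, 0.60 over 5478 genes, which covers probe and hybridisation error and not the spread between cultures. RNA length was gauged by the 3′ to 5′ intensity ratio, which for beta-actin was 3.56 (serum) and 2.05 (co-culture), for Gapdh 2.54 and 1.88, and for Tfrc 13.2 and 5.03; its part in the differences below was not tested. Scaling to the hybridisation spikes moved the median log2 difference of all measured genes from -0.06 to -0.26.

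Most markers of the labelled cell types were below the floor. Of 15 leukocyte and B cell markers with a probe set, 4 were above the floor on at least 1 array, with a summed intensity of 435 in serum culture and 487 in co-culture. Ptprc, the CD45 antigen of white blood cells, had an intensity of 21.5 and 3.14, and Cd53 had 139 and 64.3, Coro1a 75.5 and 125, and the B cell kinase Blk, named after its value was seen, 27.0 and 126 (at least 2.84-fold higher in co-culture). Of 15 endothelial markers 3 were measured, with a summed intensity of 822 and 944. Pecam1 (21.3 and 18.4) and Cdh5, the cadherin of endothelial junctions (19.6 and 44.1), were below the floor on both arrays, while Egfl7 had 473 and 532 and Flt1 93.3 and 26.4. Of 10 markers each, 5 of fibroblasts, 3 of macrophages, 4 of epithelia and 2 of pluripotent cells were measured. Their summed intensities on the serum and co-culture arrays were 385 and 464 for fibroblasts (Pdgfra 92.2 and 57.4, Col1a1 75.7 and 81.0), 214 and 342 for macrophages (Cd68 87.6 and 70.5, Adgre1 7.39 and 65.9), 518 and 595 for epithelia (Esrp1 305 and 217, Epcam 59.6 and 128), and 225 and 768 for pluripotent cells (Lin28a 59.4 and 534, Dppa5a 67.4 and 96.7). The arrays are therefore called by their labels.

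Of the 10 genes 7 were measured, and among these 1, Snai2, was at least 2-fold lower in co-culture, 0 were at least 2-fold higher and 6 did not reach 2-fold. For 1 of those 6, Snai1, the difference is a bound, since its co-culture value was below the floor, so its true size is not placed within 2-fold. Among all 11559 measured genes 9.97% were at least 2-fold lower and 4.52% at least 2-fold higher, so the share of called genes was near the background. The median log2 difference, co-culture minus serum, was -0.18 for the 7 genes and -0.06 for all measured genes. Of 5 measured factors 4 (Twist1, Snai1, Snai2 and Zeb1) had a difference below 0 and 1 (Zeb2) above 0. Of all measured genes 51.9% had a difference lower than that of Vim (-0.03), so most genes were also below 0. Each factor kept its sign in every alternative setting in which it was measured, but several settings could not change it. A floor or a pseudocount cannot reverse the sign of a probe set. Settings that average or drop probe sets repeat the main value for Twist1 and Snai1, which have 1 each. Both cadherins and Twist2 were below the floor on both arrays. In bulk RNA, fewer cells of a type and less RNA per cell cannot be told apart.

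**Figure D1:**
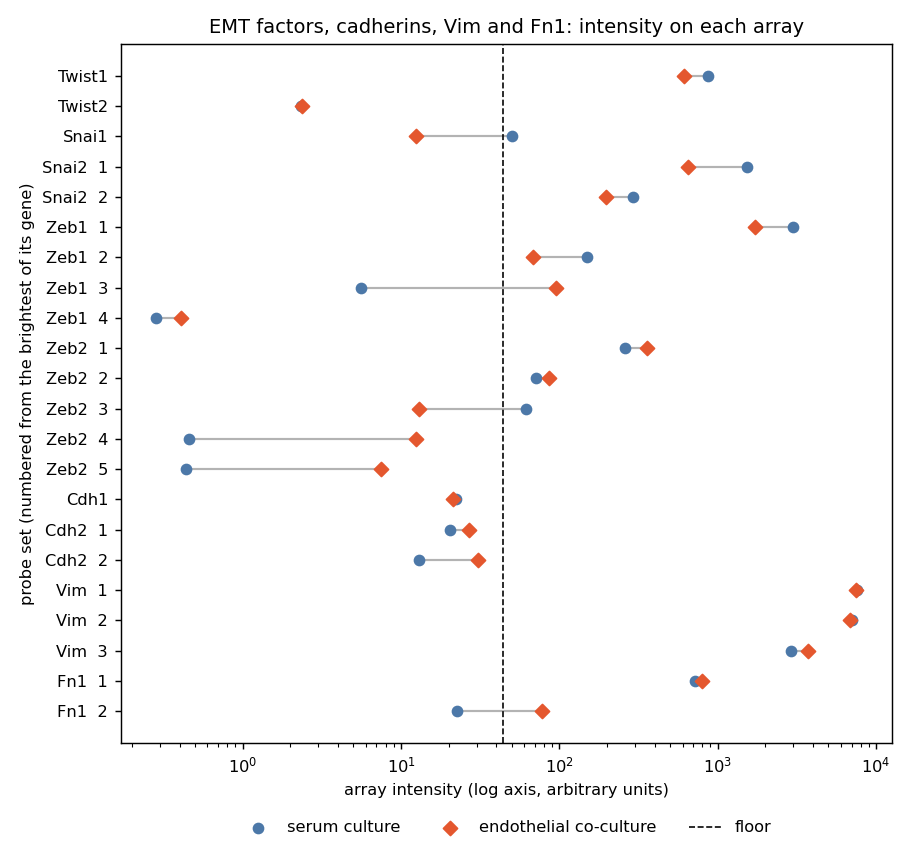
Intensity on the serum array (circles) and the co-culture array (diamonds) for each of the 22 probe sets, on a log axis in arbitrary units, with the floor of 44.3 as a dashed line. The Cdh1, Cdh2 and Twist2 probe sets lie left of the floor on both arrays, and all 3 Vim probe sets lie far to its right.

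Among the Snail factors, Snai2 (Slug, the Snail paralog of neural crest, also a survival factor of blood progenitors) gave intensities of 1528 (serum) and 651 (co-culture) by its brightest probe set. The serum array was the higher by 2.35-fold, a log2 difference of -1.23, or 2.10 times the probe-set SD of 0.59 at that level; 6.23% of measured genes had a lower difference. The identifier of that probe set marks sequence shared with other transcripts. The other Snai2 probe set had 291 and 196, a log2 difference of -0.57, so both were lower in co-culture and 1 of the 2 passed 2-fold. Snai1 (Snail, which directly represses Cdh1 and whose protein turns over rapidly) had 50.04 in serum culture and 12.4 in co-culture with its only probe set. The first value lay just above the floor and the second below it, so the log2 difference of -0.18 is a bound, and the gene was near background on both arrays. With a floor at percentile 25 of all values it was -1.96, and with a pseudocount of 16 it was -1.22.

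Zeb1 (a zinc finger repressor of Cdh1, and a regulator of T cell development) had 2983 in serum culture and 1731 in co-culture by its brightest probe set. The log2 difference was -0.79, 1.34 times the probe-set SD, with 14.6% of measured genes lower. Its other probe sets were split. One had 149 and 68.0, a log2 difference of -1.13, and another had 5.61 and 95.02, at least 2.15-fold higher in co-culture, while the last was near 0 on both arrays (0.283 and 0.411). With the mean over the 3 measured probe sets the log2 difference of Zeb1 was -0.27.

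Zeb2 (the paralog of Zeb1, active in neural crest and in blood cell maturation) had 259 in serum culture and 360 in co-culture, a log2 difference of 0.47. This was 0.81 times the probe-set SD, and its 2 other measured probe sets gave 0.27 (71.6 and 86.1) and, with co-culture below the floor, at least 1.38-fold lower (61.3 and 12.9). The remaining 2 had intensities of at most 12.4. Zeb2 and Zeb1 thus had differences of opposite sign by their brightest probe sets, each within 2-fold.

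Twist1 (a factor of mesoderm and neural crest) had 869 in serum culture and 612 in co-culture by its only probe set. The log2 difference was -0.51, 0.86 times the probe-set SD, and 24.96% of measured genes had a lower one. Twist2, its close paralog in skin and bone precursors, had 2.33 and 2.36, below the floor on both arrays. Of the Twist pair, then, only Twist1 was measured in these libraries. The E proteins with which Twist factors pair were measured. Tcf3 had 554 and 726, a log2 difference of 0.39 (0.99 and 1.19 by other probe sets), and Tcf12 had 4133 and 3562, a log2 difference of -0.21, with other probe sets from -0.28 to 1.23.

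**Figure D2:**
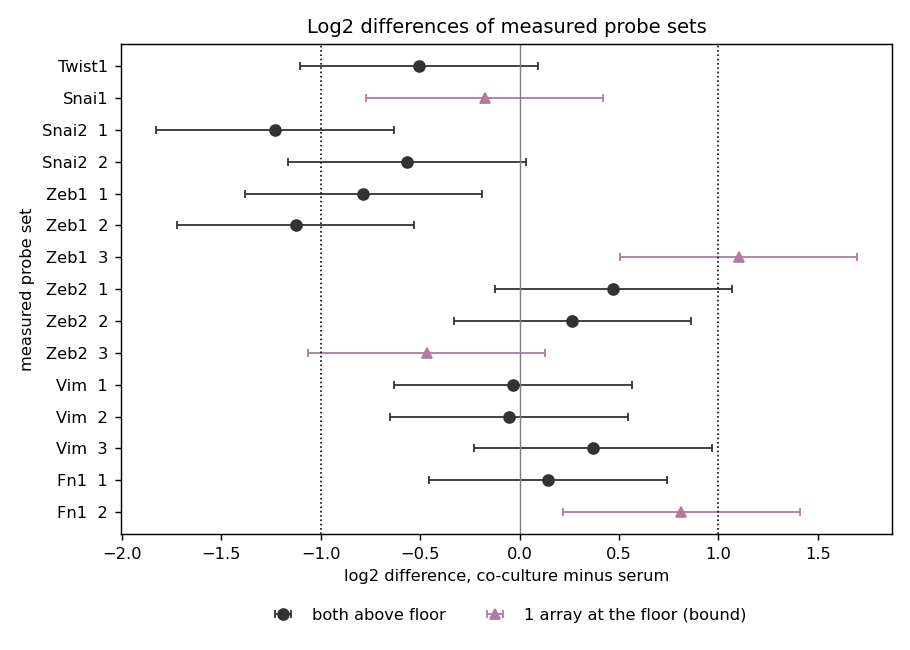
Log2 difference, co-culture minus serum, of each of the 15 measured probe sets, with bars of 1 pooled within-gene SD (0.60) and dotted lines at 2-fold. Triangles have 1 array at the floor and are bounds. Snai2 (-1.23) and the second Zeb1 probe set (-1.13) lie left of the lower line, and the third Zeb1 probe set (1.10) right of the upper one.

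Of the 15 measured probe sets 2 were at least 2-fold lower in co-culture, 1 was at least 2-fold higher and 12 did not reach 2-fold. Over all 21156 measured probe sets of 1 gene 8.06% were lower and 8.16% higher by that limit. The 11 probe sets that were above the floor on both arrays covered Twist1, Snai2, Zeb1, Zeb2, Vim and Fn1.

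The single Cdh1 probe set had 22.4 in serum culture and 21.3 in co-culture, which is close to the highest bacterial control on each array. Cdh2 had 20.4 and 26.8 by one probe set and 12.9 and 30.7 by the other. Both Cdh2 probe sets were thus above the highest bacterial control (21.7) in co-culture, but below the floor of 44.3 on both arrays. Since Cdh1 and Cdh2 were both under the floor, a switch from one to the other could not be examined. Most other cadherins were also below it. Of 19 with a probe set 6 were above the floor on at least 1 array, 0 of them at an intensity of 200, and 0 reached 2-fold in either direction (median log2 difference 0.43). The shares over all measured genes were 4.52% higher and 9.97% lower, and 6 genes are too few to be told from them. For 5 of these 6 the difference is a bound, so they have no order. A floor at percentile 25 of all values brings in cadherins outside these 6. At that floor 4 cadherins were at least 2-fold higher and 2 lower, against 2029 higher and 1599 lower among all 16144 measured genes. With a pseudocount of 16, 1 was higher and 1 lower. Cdh19, a cadherin of Schwann cell precursors, was among the 6 (31.0 and 72.1, a log2 difference of at least 0.70).

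The transcripts of Vim and Fn1, mesenchymal proteins that EMT raises, were bright and within 2-fold by their brightest probe sets. Vim had 7588 and 7414 by its brightest probe set, 7057 and 6800 by the second and 2883 and 3723 by the third. The log2 differences were -0.03, -0.05 and 0.37, each below the probe-set SD and of mixed sign. The first pair carries identifiers that mark shared sequence or several transcripts. Fn1 had 718 and 793 by its brightest probe set, a log2 difference of 0.14. By its other probe set Fn1 had 22.7, below the floor, and 77.9. That difference is at least 0.81 and is not placed within 2-fold. Endothelial cells also make Vim and Fn1 in quantity. Of the 15 endothelial markers 3 were measured, Egfl7 at 473 and 532 among them, the list summed to 822 and 944, and Pecam1 and Cdh5 were below the floor on both arrays; their part in the Vim and Fn1 signal was not tested.

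The catenins bind classical cadherins inside the cell. Ctnnb1, Ctnna1 and Ctnnd1 were bright even though Cdh1 and Cdh2 were not measured. Ctnnb1, beta-catenin, had 10019 and 10024, a log2 difference of 0.00 (1.41 and 2.15 by its other probe sets). Ctnna1, alpha-catenin, had 6781 and 4642, a difference of -0.55, and -0.91 by another. Ctnnd1, catenin delta 1, which keeps cadherins at the membrane, had 752 and 1728 and was 2.30-fold higher in co-culture. Its other probe set gave a log2 difference of 1.47. Arvcf, a relative of Ctnnd1, had 192 and 69.1 and was 2.77-fold lower (-0.96 by another probe set). The nectin Nectin2 had 140 and 53.0 and was 2.64-fold lower, against a log2 difference of 0.16 by its other probe set. Of 13 measured genes of the catenins and adherens junction 1 was at least 2-fold higher, 2 were lower and 10 did not reach 2-fold (1 of them a bound), with a median log2 difference of -0.46. Over all measured genes 4.52% were higher and 9.97% lower. Of 7 measured proteases and ligases that process cadherins 0 passed 2-fold (median 0.25). The nearest was the gamma-secretase subunit Ncstn (408 and 781, a log2 difference of 0.94).

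Some genes of epithelial junctions were higher in co-culture. Of 17 measured genes of epithelial junctions and keratins 5 were higher in co-culture by 2-fold or more, 0 were lower and 12 did not reach 2-fold, 5 of these 12 being bounds, with a median log2 difference of 0.48. The share over all measured genes was 4.52% higher and 9.97% lower. The list was chosen with earlier results of these data known, so its share cannot be tested against that of all genes. Dsp, desmoplakin, which anchors keratin or vimentin filaments at desmosomes, had 363 in serum culture and 2378 in co-culture. It was 6.55-fold higher, and its other probe set gave a log2 difference of 3.24. F11r, a tight junction adhesion molecule, had 61.3 and 224 (3.65-fold), and Cgn, cingulin of the tight junction plaque, 119 and 272 (2.28-fold). The epithelial adhesion molecule Epcam had 59.6 and 128 (2.14-fold by this probe set, 0.10 on the log2 scale by its other one). Muc1, a membrane mucin named after its value was seen, had 8.26 and 91.0 and was at least 2.05-fold higher.

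The simple keratins Krt8 and Krt18 could not be compared. Krt8 had 10.6 and 2.45 and Krt18 had 10.5 and 32.96, both below the floor on both arrays. With a floor at percentile 25 of all values, Krt18 was among the genes at least 2-fold higher. Pkp2, plakophilin of desmosomes, had 423 and 241, a log2 difference of -0.81 by its brightest probe set, and its 2 others passed 2-fold lower (-1.10 and -1.01). Of the 17 measured genes 7 reached an intensity of 200 on at least 1 array, and several others rested on a value near the floor. The count of 5 higher genes therefore depends on the floor: it was 1 (Dsp) with a floor at 200 and 11 with a floor at percentile 25. The 11 include Krt18, which is not among the 17. Over all genes, 218 of 8462 were higher with the floor at 200 and 2029 of 16144 with the floor at percentile 25. Scaled to the hybridisation spikes, 2 (Dsp and F11r) were at least 2-fold higher and 1, Pkp2, was lower. Epcam did not reach 2-fold in 7 of the 9 alternative settings, while Dsp was past it in all 9.

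**Figure D3:**
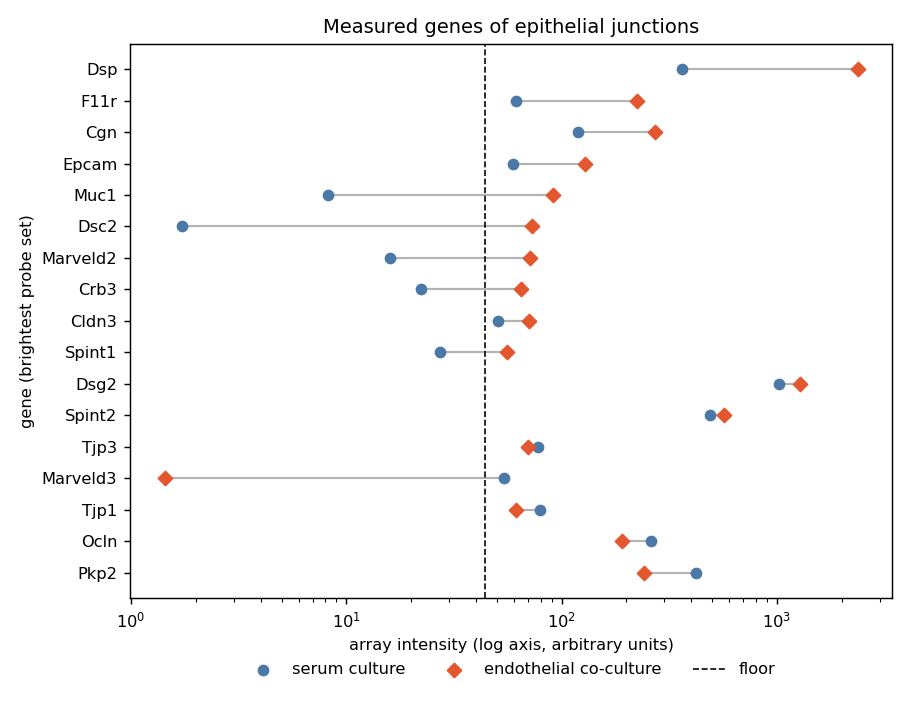
Intensity of the 17 measured genes of epithelial junctions on the serum array (circles) and the co-culture array (diamonds), on a log axis in arbitrary units, ordered by log2 difference, with the floor of 44.3 dashed. Dsp moves from 363 to 2378, while most of the others with a difference above 0 have at least 1 value close to the floor.

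Regulators that hold epithelial identity had 1 gene past 2-fold in each direction. For this list and the next, the shares over all measured genes were 4.52% higher and 9.97% lower. Of 11 measured, 9 did not reach it (4 of them bounds), 1 was higher, Grhl1 (116 and 332, 2.85-fold), a grainyhead factor that activates desmosomal genes, and 1 was lower, Elf3 (173 and 85.0, 2.04-fold), an epithelial ETS factor. The median log2 difference was 0.18. Of 12 measured mesenchymal and matrix markers 0 were higher and 1 was lower, with a median of -0.21, and 4 of the other 11 are bounds. These counts depend on the floor. With a floor at percentile 25 of all values, which leaves more genes measured, 5 markers were at least 2-fold higher and 2 lower. Among all 16144 genes measured at that floor 2029 were higher and 1599 lower. The 1 marker lower at the main floor was the matrix proteoglycan Vcan (694 and 236, 2.94-fold). Vcan is named after its value was seen, and its other probe sets ranged from -1.42 to 1.71 on the log2 scale.

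Other transcription factors linked to EMT were split. Of 11 measured 2 were higher, 1 was lower and 8 did not reach 2-fold (median log2 difference 0.09). The shares over all measured genes were 4.52% higher and 9.97% lower, and the list is too short to be told from them. Foxc1, a forkhead factor of mesenchyme, had 554 and 170 and was 3.26-fold lower, with a log2 difference of -2.62 by its other probe set. Foxq1, a forkhead factor, had 253 and 672 and was 2.65-fold higher, but another probe set gave 0.20. The homeobox gene Lbx1 had 26.8 and 98.4, at least 2.22-fold higher, with -0.19 by another. Among 19 measured corepressors and regulators of stability of the Snail and Zeb proteins 18 lay within 2-fold (median 0.20), and 1, Wtip, a LIM protein of the Ajuba family that binds Snail proteins, was lower (210 and 104, 2.03-fold).

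Of 12 measured genes of signals upstream of the factors 2 were higher, 1 was lower and 9 did not reach 2-fold (2 of them bounds), with a median log2 difference of -0.04. Among all measured genes 4.52% were higher and 9.97% lower. Tgfbr3, betaglycan, the co-receptor for TGF-beta and inhibin, had 594 in serum culture and 104 in co-culture and was 5.71-fold lower. Smad7, the inhibitory SMAD, had 661 and 2537 and was 3.84-fold higher, and its other probe set gave a log2 difference of 2.63. Smad3, which carries the TGF-beta signal to the nucleus, had 1880 and 1027, a log2 difference of -0.87. The receptor kinase Axl had 43.4 and 117 and was at least 2.64-fold higher.

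The receptors and partners of fibronectin and the other filaments are read against 9.97% lower and 4.52% higher among all measured genes. These lists too were chosen with earlier results of these data known. Of 14 measured fibronectin receptors and assembly genes 3 were lower and 0 higher (median log2 difference -0.15), among them the crosslinking enzyme Tgm2 (277 and 75.6, 3.67-fold, with all 3 other probe sets below 0), the matrix protein Fbln1 (514 and 166, 3.10-fold, -0.75 and 0.25 by others) and the integrin adaptor Tln1 (1431 and 612, 2.34-fold, 0.06 by another). By their brightest probe sets the subunits of the main fibronectin receptor lay within 2-fold. Itga5 had 304 and 375, a log2 difference of 0.30. Itgb1 had 622 and 954, a difference of 0.62. Its other probe sets ran from 0.13 to 1.67, some of them past 2-fold higher. Of 8 other intermediate filament genes measured 3 were lower and 0 higher (median -0.39). They were Synm, which co-assembles with vimentin (175 and 32.6, at least 3.95-fold), and the neuronal filaments Ina (128 and 43.2, at least 2.90-fold) and Nefh (430 and 166, 2.58-fold). With a floor at percentile 25, 2 of the fibronectin genes and 1 of the filament genes were at least 2-fold higher. At that floor 2029 of all 16144 measured genes were higher, so the shares above do not apply to these 2 counts.

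**Figure D4:**
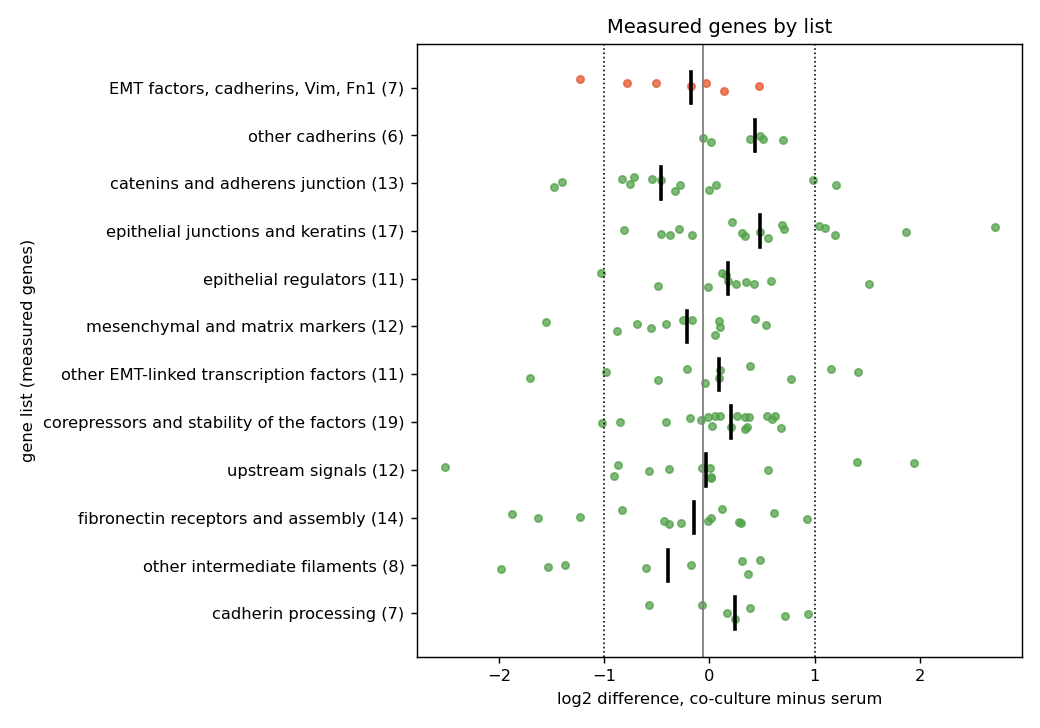
Log2 difference, co-culture minus serum, of each measured gene by list, with the number of measured genes in brackets, a black bar at the list's median, dotted lines at 2-fold and a grey line at the median of all measured genes (-0.06). Points are spread vertically for legibility only. The EMT genes (top) lie between -1.23 and 0.47, and the junction list reaches 2.71 at Dsp.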

How the data were processed

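RNA was taken with a column kit, copied from a poly(A) primer with a T7 promoter and transcribed into biotin-labelled cRNA for 1-colour arrays, per the labels' protocols. The authors deposited 1 linear intensity for each probe set and array, with 1 array in each of the 2 groups. How the scans were summarised, background-corrected and normalized is not stated in the labels. Both columns have a mean of 500 once 2% of the values are trimmed from each tail, a pattern that global scaling would leave. Names came from the platform annotation, with symbols updated to RefSeq of GRCm38.p6; 34958 had 1 symbol, 932 several and 9211 none, and those with several named no gene. The 64 control probe sets were left out of the genes. A gene was higher or lower at a log2 difference of 1 or more in size; a fold against the floor is a lower bound. The members and gene lists were chosen with earlier results of these data known. All 10 members are named, with up to 4 genes per list past 2-fold, leaving out genes with another measured probe set past 2-fold the other way, or the largest difference where none passed, and 15 genes whatever their values: Ctnna1, Ctnnb1, Ctnnd1, Epcam, Krt8, Krt18, Tcf3, Tcf12, Itga5, Itgb1, Smad3, Smad7, Pecam1, Cdh5 and Ptprc. From each marker list the 2 brightest measured genes are named. The steps were tested on simulated data, with changes larger than 2-fold planted in bright genes and noise smaller than the probe-set SD. That test does not cover changes close to 2-fold, probe sets that disagree or values near the floor. Analyses used Python 3.11.15, numpy 2.4.6 and pandas 2.3.3. The number of arrays limits the precision. The 9 alternatives were floors at percentiles 25 and 75 and at 200, a pseudocount of 16, subtraction of the median difference, quantile normalization, scaling to 18 hybridisation spike probe sets, the mean over measured probe sets, and leaving out probe sets with shared-sequence identifiers.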

Additional observations from a re-analysis of the deposited data

How the results depend on the processing

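No paired analysis was possible because each group has 1 array. For the EMT genes, the count at least 2-fold lower in co-culture was 1 (Snai2) and became 2 with a floor at percentile 25 and with a pseudocount of 16, where Snai1 joined it, and 0 with the mean over measured probe sets and without shared-sequence probe sets; the count higher was 0 in all 9 alternatives. The log2 difference of Snai2 ranged from -1.43 to -0.57 and that of Twist1 from -0.70 to -0.42, below 0 in all 9. That of Zeb1 ranged from -0.98 to -0.27, also below 0 in all 9, and that of Zeb2 from 0.09 to 0.53. The floors and the pseudocount cannot reverse the sign of a probe set, so those settings do not test it. Vim changed sign (-0.23 to 0.37), as did Fn1 (-0.06 to 0.48). For epithelial junctions and keratins the count higher was 5, and became 11 with the floor at percentile 25, 1 with the floor at percentile 75 or at 200, 3 after quantile normalization, 2 after scaling to spikes, 7 with the pseudocount and 4 with the mean over probe sets or without shared-sequence probe sets; Epcam did not reach 2-fold in 7 of the 9. The count lower was 0, and became 1 with the floor at percentile 25, with the pseudocount, with scaling to spikes and without shared-sequence probe sets. A higher floor leaves fewer genes measured (8462 at 200, of which 218 were higher) and a lower one more (16144 at percentile 25, of which 2029 were higher). For the other settings the cause was not tested. Of all calls, 31.2% were higher; this was 17.7% after scaling to spikes, 55.9% with the floor at percentile 25 and 41.5% with the pseudocount. Signals near the floor limit Snai1, Cdh1, Cdh2 and Twist2.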
